A study of Mus musculus with 12 samples.

Results

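The 8 genes described here make up the core of MHC class II antigen presentation in the mouse: H2-Aa, H2-Ab1 and H2-Eb1 (the peptide-binding chains), Cd74 (the invariant chain), H2-DMa, H2-DMb1 and H2-DMb2 (the chains of the peptide loader H2-DM) and Ciita (the transactivator of the family). They were taken by symbol, as a set chosen with earlier results of these data known. All 8 were found among the 24391 symbols of the deposited tables. Of these, 7 were among the 12052 genes that passed a filter of 1 FPKM (reads scaled to gene length and library depth) in at least 4 libraries. Ciita did not pass it. Colon epithelium was scraped from C57BL/6 mice aged 18 weeks, and RNA was sequenced in 3 groups of 4 libraries. The curcumin group received azoxymethane (AOM), dextran sulfate sodium (DSS) and curcumin, the AOM/DSS group received AOM and DSS, and the control group is labelled only as control. AOM is a carcinogen, DSS inflames the colon, and curcumin is a polyphenol of turmeric. The proximal colon and tumours of the right portion had been cut away, and slow spins and washes served to lower the share of blood cells. Whether a library stands for 1 animal is not said in the labels, so p-values below reflect only how libraries spread.

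MHC class II molecules are dimers of an alpha and a beta chain that carry peptides from endosomes to the cell surface, where CD4+ T cells read them. The invariant chain fills the groove during transport, and H2-DM then removes its last fragment and favours peptides that bind well. B cells, dendritic cells and macrophages make class II molecules throughout, whereas intestinal epithelial cells make them at a level that interferon gamma can raise, by way of Ciita. C57BL/6 mice carry a deletion in the H2-Ea gene, so H2-Eb1 lacks its partner chain at the cell surface in this strain.

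Recovered read totals per library lay between 5567988 and 15968416 reads. The epithelial label was met by Epcam, an adhesion molecule of epithelium, at 626 to 928 FPKM in all 12 libraries, against 1.17 to 6.37 FPKM for Ptprc, the CD45 antigen of all leukocytes. Ptprc is a low marker: 8 general leukocyte markers summed to 11.4 to 173 FPKM, and 10 epithelial markers to 6932 to 11983 FPKM. FPKM of different genes are not shares of cells. The libraries also split by base composition into 5 GC-rich ones (replicates 0 and 1 of curcumin, replicates 0 and 1 of AOM/DSS and replicate 0 of control) and 7 AT-rich ones. In RNA from a mixture of cells, fewer cells of a type and less RNA per cell cannot be told apart.

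The peptide-binding chains were among the more abundant members. H2-Aa, the alpha chain of the I-A molecule, had 35.6, 14.1, 17.6 and 26.1 FPKM in curcumin replicates 0 to 3, against 37.6, 61.8, 142 and 42.5 FPKM in AOM/DSS and 77.5, 33.7, 36.6 and 19.9 FPKM in control. All 4 curcumin libraries lay below all 4 AOM/DSS libraries, with a gap of less than the spread within either group, and the control libraries spanned the lower and the upper range. H2-Ab1, the beta chain of I-A, had 40.2, 13.5, 13.9 and 22.4 FPKM in curcumin, 32.8, 53.8, 90.4 and 32.4 FPKM in AOM/DSS and 60.9, 23.9, 24.6 and 10.5 FPKM in control. Here curcumin replicate 0 was above AOM/DSS replicates 0 and 3, so the groups overlapped. H2-Eb1, the beta chain of I-E, had 17.2, 6.01, 7.73 and 6.61 FPKM in curcumin, 12.9, 32.6, 63.1 and 19.4 FPKM in AOM/DSS and 25.3, 19.6, 18.3 and 7.43 FPKM in control. Curcumin replicate 0 again stood above the other 3 libraries of its group and above AOM/DSS replicate 0. H2-Ea-ps, the disabled partner gene of this strain, was listed at 0 in 10 libraries and at 0.147 FPKM or less in the remaining 2.

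Cd74 was the most abundant member. This chaperone of class II dimers, which also acts as a surface receptor, had 72.1, 30.7, 39.5 and 69.8 FPKM in curcumin, against 92.2, 149, 307 and 109 FPKM in AOM/DSS and 173, 76.1, 62.4 and 37.8 FPKM in control. The order of libraries was nearly that of H2-Aa: AOM/DSS replicate 2 was highest, control replicate 0 was next, and every curcumin library lay under every AOM/DSS library. Group means were 53.0 ± 21.0 FPKM in curcumin, 164 ± 98.05 FPKM in AOM/DSS and 87.4 ± 59.4 FPKM in control (SD, n = 4 each), so libraries of a group differed widely.

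In FPKM the loader genes were far lower, and the 2 beta chains of H2-DM differed from each other. H2-DMa, the alpha chain, had 3.35, 2.47, 2.17 and 2.58 FPKM in curcumin, 3.75, 5.28, 10.7 and 3.80 FPKM in AOM/DSS and 7.27, 2.38, 1.43 and 1.46 FPKM in control. H2-DMb1, a beta chain, had 3.74, 2.79, 2.12 and 4.13 FPKM in curcumin, 6.59, 7.45, 12.7 and 5.22 FPKM in AOM/DSS and 9.61, 2.61, 2.46 and 2.32 FPKM in control. For each of these chains the curcumin libraries were all below the AOM/DSS libraries, and control replicate 0 stood far above the other 3 control libraries. H2-DMb2, the other beta chain, had 4.08, 1.82, 1.66 and 0.920 FPKM in curcumin, 1.94, 10.6, 17.9 and 0.596 FPKM in AOM/DSS and 3.96, 7.01, 3.65 and 2.97 FPKM in control. Its highest 2 values and its lowest value were all in AOM/DSS, a 29.9-fold range within that group, and its lowest value rested on 7 reads. Whole transcripts of H2-DMb1 and H2-DMb2 are 75.3% identical, with a longest shared run of 221 bases, so reads from that stretch may have been assigned to either gene. H2-DMa shares 360 exon bases (10.4% of its exons) with Brd2 on the opposite strand, and the strand setting of the counting is not given in the sources used here.

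Ciita, which turns on the class II genes without binding DNA itself, was the lowest member in mean FPKM. Its 11 to 161 reads per library were a range like that of H2-DMb2, at 7 to 161 reads. It had 0.481, 0.461, 0.310 and 0.291 FPKM in curcumin, 0.391, 1.42, 2.34 and 0.246 FPKM in AOM/DSS and 1.18, 0.361, 0.323 and 0.550 FPKM in control. The 3 libraries above 1 FPKM were AOM/DSS replicates 1 and 2 and control replicate 0, and AOM/DSS replicates 0 and 3 lay inside or below the curcumin range. Of its exon bases, 329 (3.45%) overlap Dexi on the opposite strand.

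**Figure D1:**
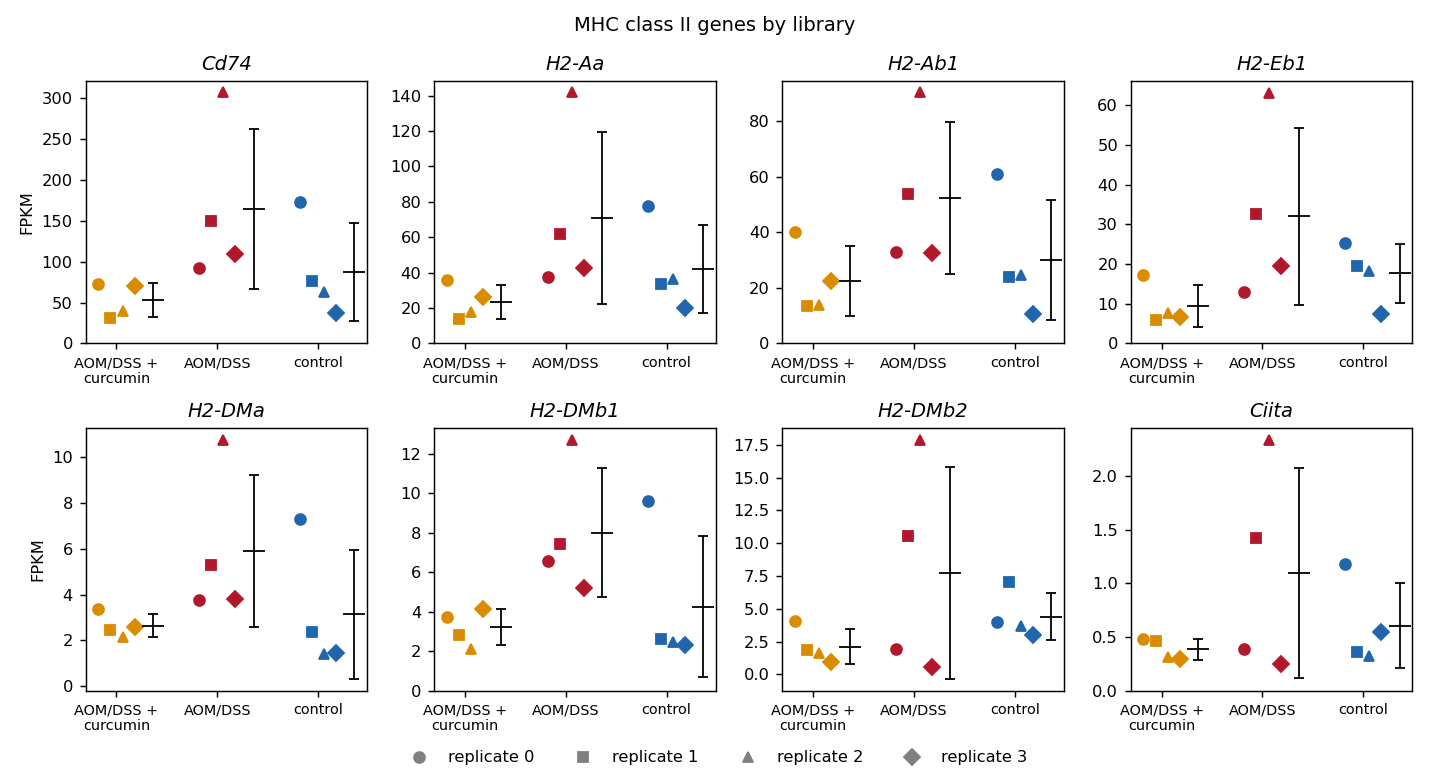
FPKM of the 8 class II genes in each library (y axis, linear, a scale of its own per gene), with curcumin, AOM/DSS and control from left to right; points are libraries, their shape gives the replicate number, and the bar to the right of each group is its mean ± SD (n = 4). AOM/DSS replicate 2 (red triangle) is the highest library for all 8 genes, and control replicate 0 (blue circle) is the highest control library for 7 of the 8.

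The class II promoters are known for a shared pair of elements, an X box bound by RFX factors and a Y box bound by NF-Y, on which Ciita is assembled, and since the genes varied together across libraries these elements were looked for. The sequences are shown to let the elements be compared between members. They are from RefSeq on GRCm38.p6, whereas the deposited values were made on mm9, and promoters of 250 bases before and 50 after the annotated start were at hand for 5 of the 8 members. The X box core was searched as AGNAAC and the Y box core as ATTGG, on both strands, and a spaced pair was an X box core followed by a Y box core on the same strand with starts 30 to 38 bases apart. Of all 32851 promoters, 48.1% held AGNAAC, 37.4% held ATTGG and 0.475% held the spaced pair. H2-Eb1 and H2-DMb1 held the spaced pair, with the elements 33 and 34 bases apart. H2-Aa held it when the X box core was shortened to GNAAC, a form chosen after the sequences were seen that 1.52% of all promoters hold. Capitals mark the X box core and the Y box core in 85 bases read on the strand of the gene, and for H2-DMb2 they mark the Y box core alone.
H2-Aa, chr17:34287847-34287931, minus strand: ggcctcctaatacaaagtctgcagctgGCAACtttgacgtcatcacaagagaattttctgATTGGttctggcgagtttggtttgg
H2-Eb1, chr17:34305748-34305832, plus strand: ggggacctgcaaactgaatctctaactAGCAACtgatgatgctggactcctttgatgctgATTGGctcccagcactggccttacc
H2-DMb1, chr17:34153070-34153154, plus strand: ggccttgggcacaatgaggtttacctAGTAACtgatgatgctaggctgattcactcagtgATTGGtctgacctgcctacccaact
H2-DMb2, chr17:34145099-34145183, plus strand: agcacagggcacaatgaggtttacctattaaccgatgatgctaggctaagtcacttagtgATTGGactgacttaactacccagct
The Y box core began 48 bases before the annotated start in H2-Aa, 59 in H2-Eb1, 61 in H2-DMb1 and 90 in H2-DMb2. The X box core began 81, 92 and 95 bases before it in H2-Aa, H2-Eb1 and H2-DMb1, in that order. The window of H2-DMb2 and 1 of the 2 windows of H2-DMa held the Y box core, and none of these windows held a spaced pair. H2-DMb2 is printed beside H2-DMb1 because the levels of these related genes differed across libraries. Such a match describes letters and is no measurement of a factor's binding.

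Across the 12 libraries some pairs of members kept closer proportions than others. The FPKM ratio of Cd74 to H2-Aa lay between 1.70 (control replicate 2) and 2.67 (curcumin replicate 3), a 1.57-fold spread, while H2-Aa itself spread 10.1-fold. H2-DMb1 over H2-DMa spread 1.79-fold, H2-Ab1 over H2-Aa 2.13-fold and H2-Eb1 over H2-Aa 2.30-fold. Between the loader, the transactivator and the chains the ratios spread more, 4.50-fold for H2-DMa over H2-Aa and 5.67-fold for Ciita over H2-Aa. Among the ratios of members computed, the widest spread was that of H2-DMb2: its ratio to H2-DMb1 was between 0.114 in AOM/DSS replicate 3 and 2.69 in control replicate 1, a 23.5-fold spread. H2-Ob, the beta chain of H2-O (an inhibitor of H2-DM known from B cells), spread 85.3-fold against H2-DMb1, and its lowest value rested on 2 reads. On the log2(FPKM + 1) scale, Pearson's r over the 12 libraries was 0.98 between Cd74 and H2-Aa, 0.96 between H2-DMa and H2-DMb1 and 0.46 between H2-DMb1 and H2-DMb2. The points of these correlations share libraries and their depth, and the values only describe the set.

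The same libraries were high for nearly every member. AOM/DSS replicate 2 was highest for 8 of 8 members, AOM/DSS replicate 1 was among the top 3 for 8 of 8, and control replicate 0 for 7 of 8. The lowest library differed by gene: curcumin replicate 1 for 3 members, AOM/DSS replicate 3 for 2 (H2-DMb2 and Ciita), and curcumin replicate 2, control replicate 2 and control replicate 3 for 1 each. A class II profile was taken as the mean deviation of the 7 tested members from their mean over all libraries, in log2(FPKM + 1). It was 0.05, -0.93, -0.86 and -0.54 in curcumin, 0.02, 0.86, 1.74 and -0.01 in AOM/DSS and 0.84, -0.04, -0.26 and -0.86 in control. Of the curcumin libraries, 3 were well below the mean and 1 was at it, whereas AOM/DSS had 2 high libraries and 2 at the mean. In AOM/DSS replicate 3 that mean joined H2-DMb2 at -1.47 with all other tested members above 0, from 0.14 (H2-DMa) to 0.41 (Cd74). The SD within groups, pooled over the 3 groups, was 0.68.

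The first question of the design was what AOM/DSS did relative to control. Here 0 of 7 tested members passed the test (limma with Benjamini-Hochberg adjustment over all genes tested, threshold 0.05), beside 1.27% of all genes tested. At an unadjusted p under 0.05 there were 2 of 7, H2-DMa and H2-DMb1, both higher, beside 6.31% of all genes, and limma voom on the recovered reads also gave 0 of 7, with 2 unadjusted. All 7 fitted differences were above 0, with a median of 0.83 on the log2(FPKM + 1) scale against 0.02 over all genes, but H2-DMb2 turned negative with a pseudocount of 0.1 (-0.071). The differences were 0.70 for H2-Aa (SE 0.45, adjusted p 0.539), 0.91 for H2-Ab1 (SE 0.48, adjusted p 0.446) and 0.70 for H2-Eb1 (SE 0.47, adjusted p 0.559). Cd74 differed by 0.96 (SE 0.46, adjusted p 0.384), with a 95% interval of -0.03 to 1.95. H2-DMa differed by 0.83 (SE 0.37, adjusted p 0.344), H2-DMb1 by 0.91 (SE 0.35, adjusted p 0.269) and H2-DMb2 by 0.12 (SE 0.63, adjusted p 0.954). The AOM/DSS and control libraries overlapped for 7 of 7 members, whereas 2.38% of all genes were higher in every AOM/DSS library. Without control replicate 0, H2-DMb1 passed the test at 1.31 (adjusted p 0.0360). Among the GC-rich libraries alone, where control replicate 0 is the only control, the median was -0.53, against 1.42 among the AT-rich libraries.

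The next comparison asked what curcumin did relative to AOM/DSS. Again 0 of 7 members passed the limma test, beside 1.08% of all genes, although 6 of 7 had an unadjusted p under 0.05 (all lower, and all but H2-DMb2), beside 6.86% of all genes. Voom gave 0 of 7 and 6 of 7 unadjusted. All 7 fitted differences were below 0, with a median of -1.19 against -0.01 over all genes. Cd74 differed by -1.54 (95% interval -2.53 to -0.55, adjusted p 0.144), H2-Eb1 by -1.54 (-2.55 to -0.54, adjusted p 0.150) and H2-Aa by -1.44 (-2.41 to -0.47, adjusted p 0.158). H2-Ab1 differed by -1.19 (adjusted p 0.276), H2-DMb1 by -1.06 (adjusted p 0.185), H2-DMa by -0.82 (adjusted p 0.328) and H2-DMb2 by -0.95 (adjusted p 0.530). Every curcumin library was below every AOM/DSS library for 4 of 7 members, namely Cd74, H2-Aa, H2-DMa and H2-DMb1, beside 4.27% of all genes. These 4 genes vary together across libraries and are not 4 separate observations. Without AOM/DSS replicate 2 the median was -0.89, with H2-DMb2 at -0.37 and Cd74 at -1.19. With limma's library weights H2-Eb1 passed the test at -1.60 (adjusted p 0.0465). The median was -0.92 among the GC-rich libraries (replicates 0 and 1 of each of these groups) and -1.57 among the AT-rich ones (replicates 2 and 3). The sign was the same in both, but the sets are small. Each held a high AOM/DSS library, replicate 1 in the GC-rich set and replicate 2 in the AT-rich set.

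Curcumin was also set beside control. Here 0 of 7 members passed, beside 0.141% of all genes, and 0 of 7 had an unadjusted p under 0.05 by limma or by voom, beside 12.2% of all genes. The median difference was -0.58 against 0.01 over all genes. H2-Eb1 differed by -0.85 (adjusted p 0.489), H2-DMb2 by -0.83 (adjusted p 0.623), H2-Aa by -0.74 (adjusted p 0.538) and Cd74 by -0.58 (adjusted p 0.642). H2-Ab1 differed by -0.28, H2-DMb1 by -0.15 and H2-DMa by 0.01, with intervals of -1.33 to 0.76, -0.91 to 0.61 and -0.79 to 0.81, and the sign of H2-DMa turned with scaling to a common sum (-0.026) or by quantiles (-0.018). The groups overlapped for 7 of 7 members, and 4.55% of all genes were lower in every curcumin library. The 3 comparisons share libraries, so a high AOM/DSS library enters the pair that holds AOM/DSS with opposite signs. Ciita was fitted without the filter over 19233 genes, and its differences were 0.30 for AOM/DSS minus control (adjusted p 0.714), -0.48 for curcumin minus AOM/DSS (adjusted p 0.504) and -0.18 for curcumin minus control (adjusted p 0.882).

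**Figure D2:**
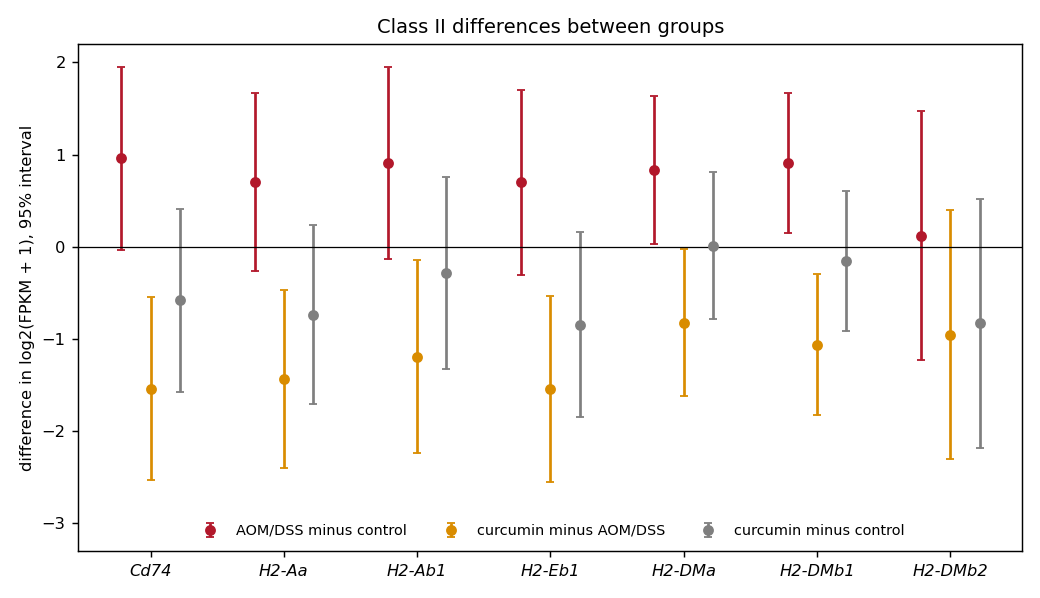
Differences in log2(FPKM + 1) for the 7 tested class II genes (y axis), as limma estimates with 95% intervals, for AOM/DSS minus control (red), curcumin minus AOM/DSS (orange) and curcumin minus control (grey). The intervals for curcumin minus AOM/DSS lie below 0 for 6 genes and cross it for H2-DMb2, those for AOM/DSS minus control lie above 0 for H2-DMa and H2-DMb1, and the intervals are not adjusted for the number of genes.

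Genes that process antigen or help loading included abundant proteases and the scarce H2-O chains. Of the 13 such genes that were found, 10 were tested, and 0 passed in any of the 3 comparisons. By limma, 2, 3 and 2 of the 10 had an unadjusted p under 0.05 in AOM/DSS against control, curcumin against AOM/DSS and curcumin against control, an order kept for such triplets below. Over all genes the shares were 6.31% (higher only), 6.86% (lower only) and 12.2% (either direction). The first 2 counts went the opposite way to these shares: Ctss and Ctsl were lower, then Ctss, Ctsl and Ifi30 were higher. Counts here and below take either direction unless said, so the first 2 shares are not their like. Shares of all genes in either direction are not reported here for the first 2 comparisons. The median differences of the 10 genes were 0.04, 0.06 and -0.0033 (0.02, -0.01 and 0.01 over all genes). Ctss, cathepsin S, the protease that trims the invariant chain, had 473, 313, 387 and 394 FPKM in curcumin, 262, 232, 346 and 311 FPKM in AOM/DSS and 371, 457, 425 and 476 FPKM in control. Every AOM/DSS library was below every control library, yet the difference of -0.60 did not pass the test (adjusted p 0.0953), and for curcumin minus AOM/DSS it was 0.45 (adjusted p 0.217). For Ctss both signs are opposite to those of Cd74, its substrate, and its r with the class II profile was -0.33 over the 12 libraries, or 0.17 with group means removed. Ctsl, cathepsin L, differed by -0.36 for AOM/DSS minus control (adjusted p 0.361). H2-Oa and H2-Ob, the chains of H2-O, had 0.345 to 1.02 and 0.293 to 1.61 FPKM in curcumin, 0.255 to 6.73 and 0.0502 to 8.82 FPKM in AOM/DSS and 0.537 to 1.88 and 1.05 to 2.14 FPKM in control. Like H2-DMb2, they had both their highest and their lowest value in AOM/DSS, in replicates 2 and 3.

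Regulators upstream of class II were tested for 16 of 17 listed genes, and 0 passed in any comparison, with 2, 3 and 4 of 16 at an unadjusted limma p under 0.05. Ifng, the gene of interferon gamma, was listed at 0 in 10 libraries and had 1 read in each of the other 2, both in curcumin. Rfx5, a subunit of the factor on the X box, was steady at 2.40 to 3.09 FPKM in curcumin, 2.60 to 3.43 FPKM in AOM/DSS and 2.35 to 3.53 FPKM in control. Irf1, an interferon-induced transcription factor, differed by -0.21 for AOM/DSS minus control (adjusted p 0.559) and by -0.20 for curcumin minus AOM/DSS (adjusted p 0.582). The largest differences for AOM/DSS minus control were 0.65 for Socs1 (adjusted p 0.145), an inhibitor of interferon signalling, and -0.63 for Ifngr1 (adjusted p 0.0732), a chain of the interferon gamma receptor, neither past the threshold. Ifngr1 had 129 to 189 FPKM in AOM/DSS, below all 4 control libraries at 205 to 282 FPKM.

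Among targets of interferon gamma outside the class II family, 1 of 11 tested rose in AOM/DSS and the same gene fell in curcumin relative to AOM/DSS. It was Ifi47, an interferon-induced GTPase, with 2.18, 1.42, 3.11 and 3.56 FPKM in curcumin, 6.99, 8.70, 11.7 and 15.7 FPKM in AOM/DSS and 3.43, 2.15, 1.43 and 1.76 FPKM in control. All 4 AOM/DSS libraries lay above all others, with differences of 1.87 for AOM/DSS minus control (adjusted p 0.00435) and -1.71 for curcumin minus AOM/DSS (adjusted p 0.00933), 2 comparisons that share the AOM/DSS libraries. Its highest library was AOM/DSS replicate 3. There the class II profile was at its mean, with H2-DMb2 low and the other tested members above their means. In the list as a whole 10 of 11 differences were above 0 for AOM/DSS minus control (median 0.39) and 10 of 11 were below 0 for curcumin minus AOM/DSS (median -0.44). At an unadjusted limma p under 0.05 there were 4, all higher, and 3, all lower, beside 6.31% and 6.86% of all genes. For curcumin minus control 0 of 11 passed, with 1 unadjusted. In control replicate 0 other interferon targets were high as well. Gbp2, a guanylate-binding protein, had 42.9 FPKM there against 8.02 to 22.8 FPKM in the other 3 controls. Ido1, an enzyme of tryptophan breakdown, had 6.47 against 0.667 to 2.50 FPKM. Cd274, alone among the tested targets, had its lowest control value there, at 2.86 against 3.31 to 5.79 FPKM.

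Genes of class I presentation, which shows peptides from the cytosol to CD8+ T cells, had median differences nearer 0. Of 14 genes, all tested, 0 passed in any comparison, and the median differences were 0.15, -0.10 and 0.07, with 1, 1 and 0 at an unadjusted limma p under 0.05. Psmb8, an immunoproteasome subunit encoded in the class II region, had 37.8, 21.6, 19.1 and 26.2 FPKM in curcumin, 39.3, 52.0, 49.0 and 42.8 FPKM in AOM/DSS and 55.3, 19.96, 27.0 and 23.2 FPKM in control. Its curcumin libraries were all below its AOM/DSS libraries (-0.82, adjusted p 0.190), and control replicate 0 was again the highest control. Tap1, a subunit of the peptide transporter, differed by 0.63 for AOM/DSS minus control (adjusted p 0.454) and had 20.5 FPKM in control replicate 0 against 3.87 to 8.84 FPKM in the other controls. Of 6 genes for T cell costimulation 2 were tested and 0 passed in any comparison, with 1, 0 and 1 at an unadjusted p under 0.05. These were Icosl, a ligand of ICOS (-0.79, adjusted p 0.243, for AOM/DSS minus control), and Cd274, the ligand PD-L1 (-0.50, adjusted p 0.397).

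Markers of other cells moved with the class II genes in the libraries that were highest. The 12 B cell markers summed to 24.1, 19.4, 15.7 and 7.74 FPKM in curcumin, 14.5, 64.4, 146 and 6.74 FPKM in AOM/DSS and 21.5, 39.98, 29.7 and 17.9 FPKM in control. The highest 2 sums, in AOM/DSS replicates 1 and 2, were in the libraries with the highest 2 class II profiles, while control replicate 0, next in that profile, was in the middle of the B cell sums. Cd79a, part of the B cell receptor, had 0.908 to 4.27 FPKM in curcumin, 0.858 to 31.0 FPKM in AOM/DSS and 3.396 to 6.97 FPKM in control, and all 12 markers were above 0 in all 12 libraries. By limma 0 of 9 tested B cell markers passed in any comparison, with 0 unadjusted in each, and the median differences were 0.29, -0.69 and -0.47. The 8 general leukocyte markers summed to 11.4 to 28.5 FPKM in curcumin, 18.9 to 173 FPKM in AOM/DSS and 24.9 to 47.7 FPKM in control. Of these, 0 of 8 passed, with 0, 5 (all lower, beside 6.86% of all genes) and 0 unadjusted, at medians of 0.52, -1.11 and -0.62.

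Macrophage, dendritic cell and T cell markers were taken in turn. The 11 macrophage markers in the tables summed to 30.8, 4.89, 9.72 and 10.4 FPKM in curcumin, 17.4, 28.2, 54.8 and 58.4 FPKM in AOM/DSS and 19.2, 32.3, 48.4 and 9.05 FPKM in control. AOM/DSS replicate 3 was highest here and lowest of all 12 libraries for B cells, and Adgre1, which encodes F4/80, was at 0.392 FPKM or less in every library. Of 5 tested macrophage markers 0 passed, with 3 (all higher, beside 6.31% of all genes), 4 (all lower, beside 6.86%) and 0 unadjusted. The medians were 0.53, -1.06 and -0.22. The 10 dendritic cell markers summed to 1.25 to 1.39 FPKM in curcumin, 0.742 to 6.62 FPKM in AOM/DSS and 1.60 to 3.00 FPKM in control, with the highest sum in AOM/DSS replicate 2, and 0 of 10 passed the filter. Itgax, which encodes CD11c, was at 0.0509 to 0.345, 0.177 to 0.715 and 0.240 to 0.531 FPKM in these groups, and Batf3 and Cd209a were listed at 0 in all 4 curcumin libraries. The T cell markers summed to 4.28 to 7.41 FPKM in curcumin, 5.58 to 22.9 FPKM in AOM/DSS and 6.32 to 10.1 FPKM in control, again with the highest sum in AOM/DSS replicate 2. Of 5 tested 0 passed, with 1 (higher), 2 (lower) and 0 unadjusted, beside the same shares of all genes. The medians were 0.39, -0.51 and -0.11. Cd3g, a chain of the T cell receptor complex, and Lck, a kinase of T cell signalling, were lower in every curcumin library than in every AOM/DSS library, by limma differing by -0.80 (adjusted p 0.191) and -0.51 (adjusted p 0.200). Cd3e, another chain of that complex, was at 0.432 to 1.28, 0.639 to 2.67 and 0.274 to 1.83 FPKM in these groups. The 10 epithelial markers summed to 6996 to 11983 FPKM in curcumin, 6932 to 10190 FPKM in AOM/DSS and 7343 to 11232 FPKM in control, and 0 of 10 passed in any comparison, with 1, 0 and 1 unadjusted. The part of other cells in the class II differences was not tested.

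**Figure D3:**
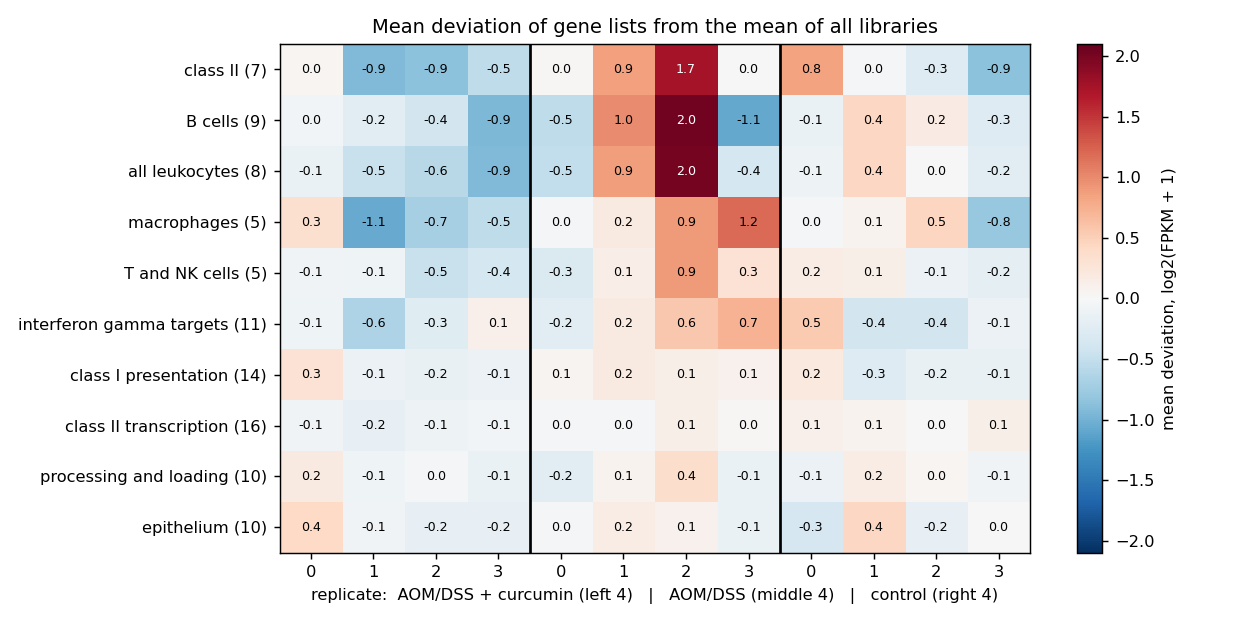
Mean deviation of each gene list from its mean over the 12 libraries, in log2(FPKM + 1) (colour and printed value), with the number of tested genes in brackets; columns are the 4 curcumin, 4 AOM/DSS and 4 control libraries, by replicate number. Class II genes, B cell markers and general leukocyte markers are all highest in AOM/DSS replicate 2, whereas control replicate 0 is high for class II genes and interferon gamma targets but not for B cell markers.

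In AOM/DSS replicates 0 and 3, picked with their values seen, the B cell sums of 14.5 and 6.74 FPKM lay within or below the curcumin range of 7.74 to 24.1 FPKM. Their macrophage sums were 17.4 and 58.4 FPKM, against a curcumin maximum of 30.8 FPKM, and the part of these cells was not tested. In these libraries Cd74 had 92.2 and 109 FPKM, above the curcumin maximum of 72.1 FPKM. H2-Aa had 37.6 and 42.5 FPKM against a curcumin maximum of 35.6 FPKM, H2-DMa had 3.75 and 3.80 FPKM against 3.35 FPKM, and H2-DMb1 had 6.59 and 5.22 FPKM against 4.13 FPKM. For Cd74 and these genes no other order was possible, since all their AOM/DSS libraries lay above all their curcumin libraries. H2-Ab1, at 32.8 and 32.4 FPKM, was below the curcumin maximum of 40.2 FPKM, and H2-Eb1, at 12.9 and 19.4 FPKM, lay on either side of the curcumin maximum of 17.2 FPKM. H2-DMb2, at 1.94 and 0.596 FPKM, lay within or below the curcumin range of 0.920 to 4.08 FPKM. With AOM/DSS replicates 1 and 2 left out, a setting chosen after the data were seen, the median for curcumin minus AOM/DSS was -0.74, Cd74 differed by -0.997 (limma adjusted p 0.434), H2-DMb2 by 0.43 (adjusted p 0.697), and 0 of 7 had an unadjusted p under 0.05, beside 1608 of all 12052 genes in that fit, which has 2 AOM/DSS libraries. For AOM/DSS minus control the median was then 0.37, with H2-Eb1 at -0.032 and H2-DMb2 at -1.26.

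**Figure D4:**
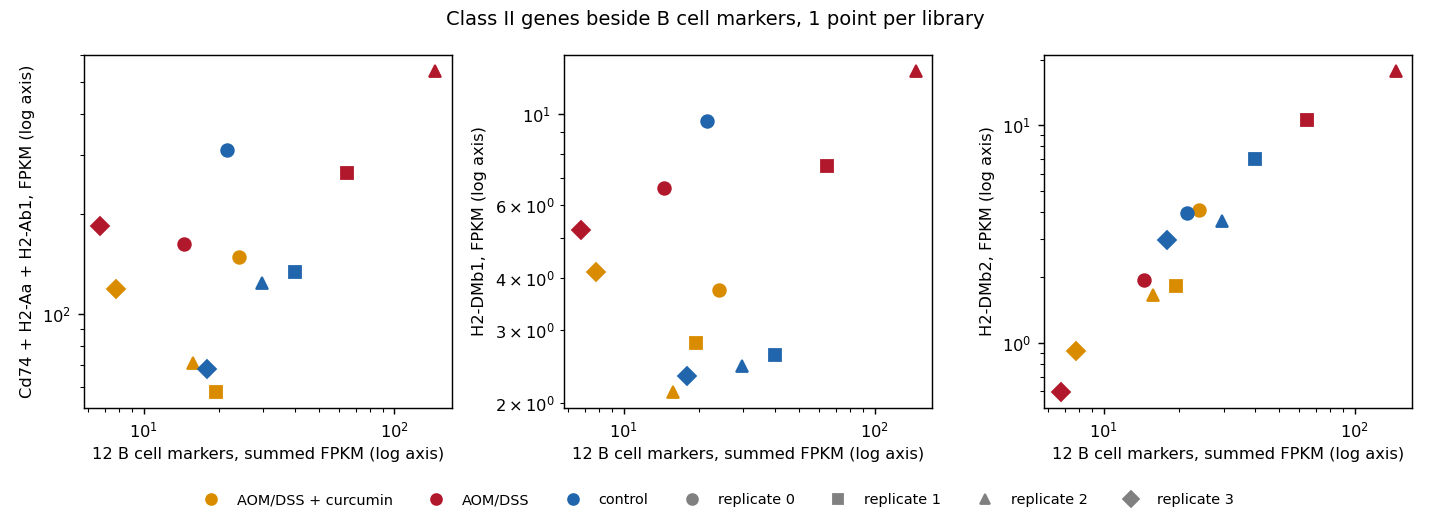
Summed FPKM of Cd74, H2-Aa and H2-Ab1 (left), FPKM of H2-DMb1 (middle) and FPKM of H2-DMb2 (right) on the y axes, against the summed FPKM of 12 B cell markers on the x axes, all on log scales; each point is a library, coloured by group. H2-DMb2 follows the B cell sum from 0.596 FPKM at a sum of 6.74 up to 17.9 FPKM at a sum of 146, whereas H2-DMb1 is 5.22 FPKM at the lowest sum and 9.61 FPKM in control replicate 0 at a sum of 21.5.

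Genes most like the class II profile were ranked among all tested non-members by Pearson's r over the 12 libraries, on the log2(FPKM + 1) scale, as a description. The 10 nearest were Traf5 (r 0.94), Mir5107 (0.91), Laptm5 (0.91), H2-Q7 (0.91), H2-Q9 (0.91), Ly86 (0.88), Cxcr4 (0.88), Msn (0.88), Itgb7 (0.87) and Hvcn1 (0.86). Mir5107 shares 12 exon bases with Cd74, so its reads may be those of Cd74, and H2-Q7 and H2-Q9 are near-identical class I genes whose reads cannot be told apart with confidence. Laptm5 encodes a lysosomal protein of blood cells, Ly86 a partner of the receptor CD180, Itgb7 an integrin chain of gut-homing lymphocytes and Hvcn1 a proton channel of B cells and phagocytes. With group means removed, r was 0.92 for Traf5 and between 0.79 and 0.89 for the other 9. Traf5, an adaptor of TNF family receptors, had 1.22, 0.776, 0.793 and 0.657 FPKM in curcumin, 1.16, 1.53, 2.31 and 0.889 FPKM in AOM/DSS and 1.47, 1.31, 1.12 and 0.801 FPKM in control. Among the tested members themselves, r with the profile was 0.98 for H2-Aa and 0.97 for Cd74 but 0.75 for H2-DMb2. Each member is part of the profile, which raises its r, so these values are not comparable with those of non-members. Of the listed genes that are not members, Laptm5 ranked 3, Coro1a (an actin-binding protein of leukocytes) 16, Lck (a kinase of T cells) 17, Psmb8 22, H2-Oa 24 and Cd79a 58, and Ctss ranked 10478 of the tested genes outside the family.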

How the data were processed

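RNA of 12 libraries, 4 per group, was measured by sequencing. The files hold FPKM (reads scaled to gene length and depth), deposited by the authors per library, per the file names. Per the submitters' processing notes, the build was mm9 and the tools included featureCounts 1.5.1, Bowtie2 2.2.6 and TopHat2 2.1.1, with R 3.4.0, DESeq2 1.14.1 and Picard also listed, in no stated order. Strandedness, gene models and filters are not given in the sources used here. All values of the 19233 genes above 0 were whole multiples of a read step within 0.001, which gave read totals of 5567988 to 15968416. These count reads assigned to genes, and the number of reads limits the precision of low genes.

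The test was limma (version 3.58.1, R 4.3.3) on log2(FPKM + 1), using an intensity trend, 1 model over the 12 libraries, no covariates and Benjamini-Hochberg adjustment over 12052 genes (those reaching 1 FPKM in 4 libraries). Differences on this scale understate the change of low genes. The fit was tested on simulated reads drawn independently per gene, which do not mimic genes that vary together across libraries. The 8 members were named whatever their values. Of each list every gene past 0.05 was named, and otherwise up to 3 with the largest differences for AOM/DSS minus control, plus markers fixed by name and the 10 genes most like the class II profile. Some genes taken by this rule are given only in counts or not reported here, and Gbp2, Ido1, Tap1 and Psmb8 were named with their values seen. The members and lists were chosen with earlier results of these data known.

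Alternatives changed the pseudocount, filter, scaling, trend, weights, libraries fitted and GC content, used voom on recovered reads, left out each library in turn, or added the replicate number as a block. GC-rich libraries are those whose deviations from the mean correlated positively with gene GC content, which was known for 99.3% of tested genes. GC content, exon overlap and transcript identity came from an annotation of GRCm38, a later build than the deposited values. Replicate numbers are not stated to pair libraries.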

Additional observations from a re-analysis of the deposited data

Results flagged for a closer look

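In 69 groups of 4 libraries, the highest or lowest library was set against the rest, and 5 stood apart by more than Dixon's criterion allows, where chance gives about 1 in 20. That rate holds for independent groups of normally distributed values. Here raw FPKM were used and the genes share libraries, so it is only a rough guide. H2-Eb1 had 17.2 FPKM in curcumin replicate 0, against 6.01 to 7.73 FPKM in the other curcumin libraries. H2-DMa had 7.27 FPKM in control replicate 0, against 1.43 to 2.38 FPKM in the other controls, and H2-DMb1 had 9.61 FPKM there, against 2.32 to 2.61 FPKM. Outside the family, Epcam had 928 FPKM in curcumin replicate 0, against 626 to 668 FPKM, and Irf1 had 67.8 FPKM in that library, against 44.6 to 47.9 FPKM.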

How the results depend on the processing

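Over 28 alternatives, the count of members past the threshold differed from 0 in 2 cases. For AOM/DSS minus control it ranged from 0 to 1 when each library was left out (1 without control replicate 0), and for curcumin minus AOM/DSS it was 1 with library weights and 0 in every leave-one-out fit. For curcumin minus control it was 0 throughout. The member median ranged from 0.52 to 1.23, from -1.56 to -0.89 and from -0.90 to -0.18 over the leave-one-out fits of AOM/DSS against control, curcumin against AOM/DSS and curcumin against control. With the GC-rich libraries alone it was -0.53 for AOM/DSS minus control and -1.32 for curcumin minus control, each against 1 control library. In that AOM/DSS fit Cd74 was at -0.56, H2-Aa at -0.67, H2-Ab1 at -0.53, H2-Eb1 at -0.28, H2-DMa at -0.60 and H2-DMb1 at -0.41. H2-DMb2 turned in sign for AOM/DSS minus control with a pseudocount of 0.1 (-0.071), library weights (-0.051), voom (-0.15), without AOM/DSS replicates 1 and 2 (-1.26), and over the leave-one-out range (-0.46 to 0.73). Without those 2 libraries, H2-Eb1 was at -0.032 for AOM/DSS minus control and H2-DMb2 at 0.43 for curcumin minus AOM/DSS. For curcumin minus control, H2-DMa was at -0.026 with a common sum, -0.018 with quantiles, -0.076 with a GC covariate, -0.068 with the GC trend removed and -1.09 in GC-rich libraries (leave-one-out -0.18 to 0.41). H2-DMb1 was at 0.21 in AT-rich libraries (leave-one-out -0.31 to 0.25), and H2-Ab1 ranged from -0.67 to 0.14. The cause of these turns was not tested. A filter at 5 FPKM removed H2-DMa and H2-DMb2. With the replicate number as a block, 0 members passed in each comparison, and over all genes 82, 86 and 2 passed, against 153, 130 and 17 without it. Deviations of same-numbered libraries correlated above 0.1 in 1, 3 and 2 of 4 pairs. The ranges were -0.29 to 0.46, 0.036 to 0.36 and -0.33 to 0.28, so all 4 pairs of curcumin and AOM/DSS were above 0. In these groups replicates 0 and 1 were GC-rich and replicates 2 and 3 AT-rich. The numbers were not taken as a pairing because the labels do not state one. Over all genes the other alternatives gave 4 to 288, 1 to 468 and 0 to 491 (voom 169, 139 and 22), and leaving out a library 53 to 201, 48 to 149 and 4 to 35. Low read numbers limit Ciita, H2-DMb2 and H2-Ob.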

Other observations

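The summed markers of fibroblasts and of plasma cells were highest in AOM/DSS replicate 3. There the class II profile was at its mean, with H2-DMb2 low and the other tested members above their means. The plasma cell markers summed to 1.40 to 15.1 FPKM in curcumin, 7.25 to 56.4 FPKM in AOM/DSS and 1.79 to 21.4 FPKM in control, and Jchain, the joining chain of antibodies, made up 53.0 FPKM of the sum in AOM/DSS replicate 3. The other tested plasma cell markers, Mzb1 and Pou2af1, were highest in AOM/DSS replicate 2, at 4.33 and 5.88 FPKM, against 2.59 and 0.391 FPKM in AOM/DSS replicate 3. The fibroblast markers summed to 0.344 to 4.46 FPKM in curcumin, 2.47 to 22.5 FPKM in AOM/DSS and 0.707 to 12.4 FPKM in control. By limma 0 of 3 plasma cell markers and 0 of 2 fibroblast markers passed in any comparison. At an unadjusted p under 0.05 there were 2 plasma cell markers for curcumin minus AOM/DSS (lower, beside 6.86% of all genes) and 0 in the remaining cases. The only endothelial marker tested, Pecam1, had 3.29 to 4.65 FPKM in curcumin, 1.04 to 2.82 FPKM in AOM/DSS and 3.01 to 4.81 FPKM in control, and its difference of -0.66 for AOM/DSS minus control did not pass (limma adjusted p 0.142).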
